A study of Mus musculus with 2 samples.

Results

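The 8 genes described here carry bile acids through the absorptive cells of the ileum or respond to them there: Slc10a2, Fabp6, Slc51a, Slc51b, Nr1h4, Gpbar1, Fgf15 and Nr0b2. They were taken by symbol from a table of 27275 genes, and all 8 were found. RNA was measured by sequencing in small intestine of naive mice, with 1 library per genotype. The wild-type library carries the genotype label Spib+Villin-Cre, and the knockout library carries Spibfl/flVillin-Cre, so both labels name a Cre recombinase driven by the villin promoter. That promoter is active in gut epithelium, so Spib, an ETS family transcription factor of M cells and B cells, is deleted by design in epithelium and not in immune cells. Neither the age and sex of the mice nor any pooling of animals is stated in the labels. Spib itself had 4.94 FPKM (reads scaled by gene length and by library size) in the wild type and 0.592 in the knockout, which goes with the labels.

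Bile acids are made in the liver, act in the gut lumen and are taken back up at the end of the small intestine. In the ileal enterocyte the apical sodium-dependent transporter takes them up, a cytosolic protein binds them, and a transporter of paired subunits releases them toward the portal blood. Inside the cell they activate the nuclear receptor FXR, which induces the binding protein, the export subunits, the corepressor SHP and the hormone FGF15, and FGF15 lowers bile acid synthesis in the liver.

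The sequences shown first are stretches before the RefSeq transcription starts of Fabp6, Slc51a and Slc51b, shown because these known FXR targets are the genes whose windows hold matches to the FXR response element. RefSeq windows of 300 bases (250 before and 50 after the start, build GRCm38.p6, the assembly of mm10) were found for 7 of the 8 genes, all but Fgf15. They were searched on both strands for the inverted repeat bound by FXR with its partner RXR, AGGTCANTGACCT, with at most 2 mismatches in the 12 fixed letters and, more loosely, with 3, limits chosen after matches had been seen. Capitals mark the matched letters, and each stretch is written 5′ to 3′ on the minus strand, where the 3 genes lie.

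Fabp6, chr11:43601683-43601792: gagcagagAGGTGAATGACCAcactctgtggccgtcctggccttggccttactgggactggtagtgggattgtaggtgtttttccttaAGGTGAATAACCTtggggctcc
Slc51a, chr16:32487923-32487972: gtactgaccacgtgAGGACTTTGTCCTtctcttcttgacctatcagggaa
Slc51b, chr9:65422946-65422995: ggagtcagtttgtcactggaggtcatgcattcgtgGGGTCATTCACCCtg

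The Fabp6 stretch held 2 inverted repeats, each with 2 mismatches, which began 222 and 142 bases before the start. Of all 32851 RefSeq windows, 1.14% held such a repeat with at most 2 mismatches. The Slc51b repeat had 3 mismatches, a looser match that 11.4% of all windows reached, and the Slc51a repeat, beginning 79 bases before the start, was another of that kind. The Slc51b repeat began 187 bases before the RefSeq start and straddles the GENCODE start of the gene at 65422955, with 10 bases of the stretch inside the GENCODE gene. The windows of Slc10a2, Nr1h4, Nr0b2 and Gpbar1 held none with at most 3 mismatches, which says only that these letters are not in those windows. A match describes letters in these windows and does not show binding.

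The carriers of bile acids were abundant in both libraries, and none of the 6 bile acid genes compared differed by 2-fold. Of the 8 genes, 6 reached 1 FPKM in at least 1 library and were compared, and 0 of these 6 were at least 2-fold higher or lower in the knockout. Among all 13479 genes compared by the same rule, 1.61% were at least 2-fold higher, 2.51% at least 2-fold lower and 4.12% either, so a count of 0 among 6 is near the background. The log2 ratio is log2 of knockout FPKM + 1 over wild-type FPKM + 1, and its median was -0.26 over the 6 genes and -0.05 over all compared genes. Without replicates no test was made, and each difference below is one between these 2 libraries. Intervals are exact at 95% from recovered whole reads, cover counting error only and treat reads as independent molecules.

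**Figure D1:**
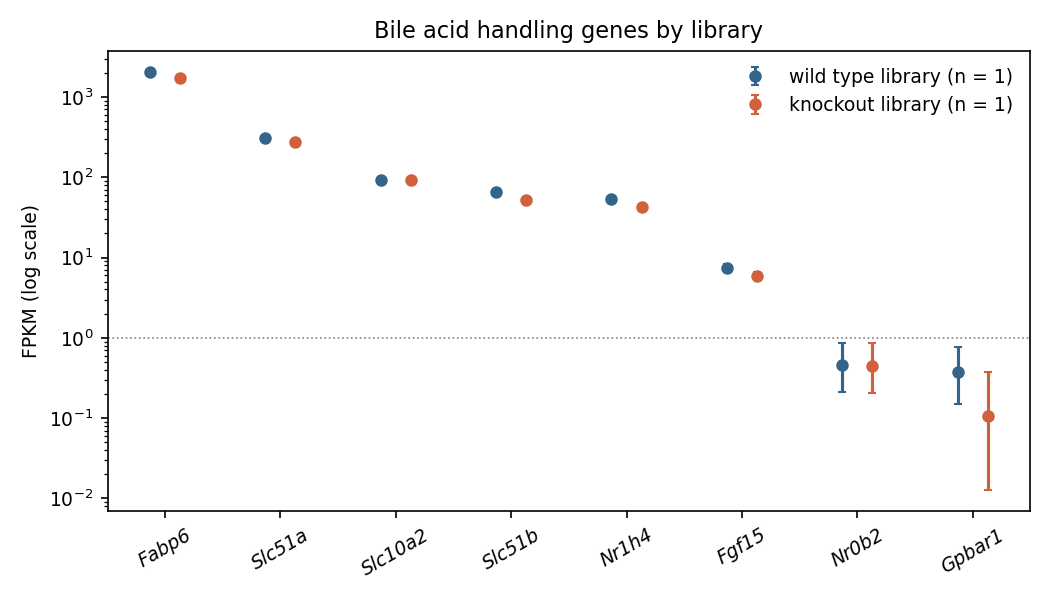
FPKM of the 8 bile acid genes on a log axis in the wild-type and the knockout library, 1 point per library, with 95% Poisson intervals for counting error. Fabp6 stands highest at 2030.2 and 1735 FPKM, and Nr0b2 and Gpbar1 lie under the dotted line at 1 FPKM in both libraries.

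The uptake gene had nearly the same level in both libraries. Slc10a2, the apical sodium-dependent bile acid transporter (ENSMUSG00000023073, minus strand of chromosome 8, 5083219 to 5105351), had 92.6 FPKM from 6697 reads in the wild type and 92.1 FPKM from 6750 reads in the knockout. The libraries could not be told apart for this gene by counting error. The fold, knockout over wild type, was 0.995 (0.961 to 1.03).

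Binding protein RNA was the most abundant and was lower in the knockout. Fabp6, the ileal bile acid binding protein of the cytosol (ENSMUSG00000020405, minus strand of chromosome 11, 43596049 to 43601540), had 2030.2 FPKM from 16946 reads in the wild type and 1735 FPKM from 14672 reads in the knockout. It ranked 17 among all genes of the wild type and 23 in the knockout, and held 0.549% and 0.460% of the FPKM sum. Its fold was 0.854 (0.836 to 0.874), a log2 ratio of -0.23. The interval lies below 1, with variation between mice not covered.

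Both export subunits were lower in the knockout, each by less than 2-fold. Slc51a encodes OSTα, the larger subunit of the basolateral exporter (ENSMUSG00000035699, minus strand of chromosome 16, 32474504 to 32487879), and had 311 FPKM in the wild type and 271 FPKM in the knockout, a fold of 0.872 (0.845 to 0.899). Its annotated exon length of 3198 bases gave no whole reads, and the smallest whole pair, 8679 and 7668 reads, was used for the interval. Slc51b encodes OSTβ, the small subunit without which the complex does not reach the membrane (ENSMUSG00000053862, minus strand of chromosome 9, 65412714 to 65422955). It had 66.3 FPKM from 819 reads in the wild type and 52.3 FPKM from 655 reads in the knockout, a fold of 0.789 (0.711 to 0.876) and the lowest log2 ratio of the 6 compared genes, -0.34.

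Exons of both subunit genes overlap a gene on the other strand, and reads cannot be told apart where strand is unknown. Pcyt1a, a phospholipid synthesis gene overlapping Slc51a, had 44.0 FPKM in the wild type and 53.3 in the knockout. Rasl12, which overlaps Slc51b, had 1.27 and 0.802 FPKM, far below Slc51b.

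The nuclear receptor was lower by a similar share. Nr1h4, which encodes FXR (ENSMUSG00000047638, minus strand of chromosome 10, 89454234 to 89533585), had 53.9 FPKM from 2162 reads in the wild type and 43.1 FPKM from 1754 reads in the knockout. Its fold was 0.801 (0.751 to 0.853). The membrane receptor gene Gpbar1, which encodes TGR5 (ENSMUSG00000064272, plus strand of chromosome 1, 74278550 to 74279624), was near the limit of detection, at 0.374 FPKM from 7 reads and 0.105 FPKM from 2 reads. Its fold of 0.282 had an interval of 0.0286 to 1.48, so a difference was not detectable at this depth.

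Gpbar1 is known from L cells and macrophages. The summed markers of both were lower in the knockout, while Gpbar1 itself had too few reads to show a difference. The summed FPKM of 5 L cell and enteroendocrine markers was 137 in the wild type and 108 in the knockout, with 3 of the 4 compared lower. The most abundant, the hormone genes Nts and Gcg, had 65.9 and 53.8 FPKM and 23.2 and 24.5 FPKM. The sum of 7 macrophage markers was 109 and 78.1 FPKM, with 5 of the 7 lower, and the most abundant, the complement genes, were C1qa at 42.6 and 28.4 FPKM and C1qb at 33.5 and 22.5 FPKM. Their part in the Gpbar1 values was not tested. In whole tissue, fewer cells of a type and less RNA per cell cannot be told apart.

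The FXR targets that act as signals were low. Fgf15, the hormone sent from ileum to liver (ENSMUSG00000031073, plus strand of chromosome 7, 144896531 to 144900953), had 7.43 FPKM from 396 reads in the wild type and 5.93 FPKM from 320 reads in the knockout, a fold of 0.797 (0.686 to 0.926). Its exons overlap the minus-strand genes Gm26793 and Gm39119, the higher of which, Gm39119, had 1.21 and 1.13 FPKM. Nr0b2, which encodes the corepressor SHP (ENSMUSG00000037583, plus strand of chromosome 4, 133553376 to 133556536), had 9 reads in each library, 0.456 and 0.450 FPKM. Its fold of 0.987 had an interval of 0.347 to 2.81, so this depth leaves differences of over 2-fold in either direction unseen.

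**Figure D2:**
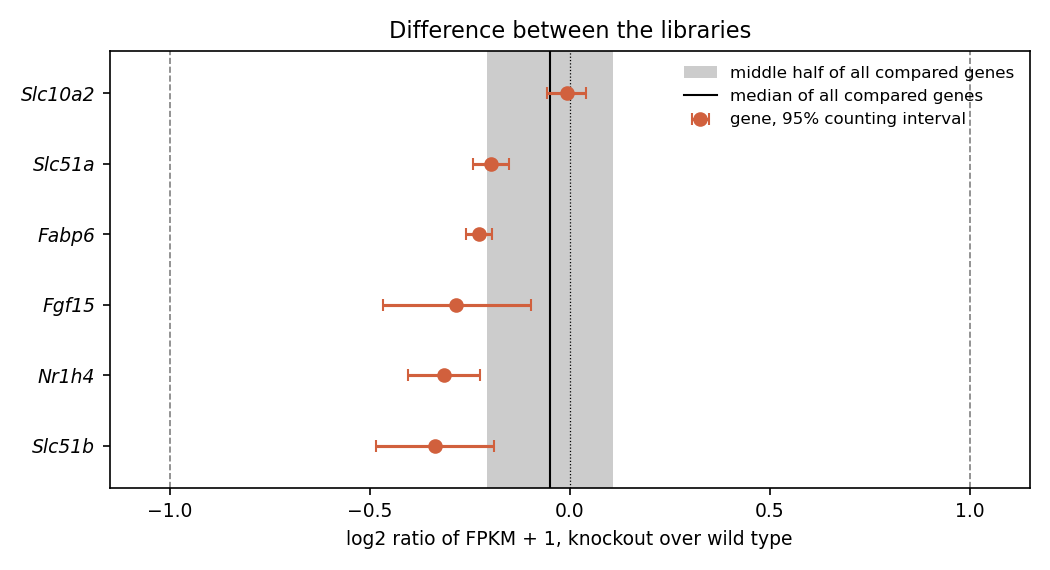
Log2 ratio of FPKM + 1, knockout over wild type, for the 6 compared bile acid genes, with 95% counting intervals (1 library per genotype). The grey band runs from the lower to the upper quartile of all compared genes, -0.21 to 0.11, the solid line is their median at -0.05, and dashed lines mark 2-fold. Slc10a2 lies inside the band, and Fabp6, Fgf15, Nr1h4 and Slc51b lie left of it.

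Differences of this size were common in the table. Of all compared genes, 13.2% had a log2 ratio below that of Slc51b, 14.5% below that of Nr1h4, 17.1% below that of Fgf15, 22.4% below that of Fabp6 and 26.1% below that of Slc51a. Slc10a2 stood near the middle, with 57.3% of genes below it. All 6 ratios were below 0, where 58.7% of compared genes lay, but that of Slc10a2, at -0.01, turned to 0.04 when ratios were centred on the median of all compared genes. As none of the 6 compared genes passed 2-fold, no genes of like pattern were sought.

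The order of levels was the same in both libraries, from Fabp6 through Slc51a, Slc10a2, Slc51b, Nr1h4, Fgf15 and Nr0b2 down to Gpbar1. Counting intervals of neighbours in that order were separate for the first 6 genes in each library. Those of Nr0b2 and Gpbar1 overlapped, at 0.209 to 0.866 and 0.150 to 0.770 FPKM in the wild-type library.

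Since FPKM is scaled by length, levels can be compared between genes within a library. Fabp6 stood 21.9-fold (21.3 to 22.6) above Slc10a2 in the wild type and 18.8-fold (18.3 to 19.4) above it in the knockout, intervals that do not overlap. Slc10a2 stood 1.40-fold (1.30 to 1.50) above Slc51b in the wild type and 1.76-fold (1.62 to 1.91) above it in the knockout, and these do not overlap either. The export subunits kept closer proportions: the ratio of Slc51a to Slc51b was 4.70 (4.37 to 5.05) and 5.19 (4.79 to 5.63), with overlapping intervals. The ratio of Fabp6 to Slc51a was 6.52 (6.36 to 6.69) and 6.39 (6.22 to 6.57), which overlap as well. Slc51a stood 3.36-fold (3.26 to 3.47) above Slc10a2 in the wild type and 2.95-fold (2.85 to 3.05) above it in the knockout. Of the 5 pairs compared, the 3 with Slc10a2 differed between the libraries beyond counting error.

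**Figure D3:**
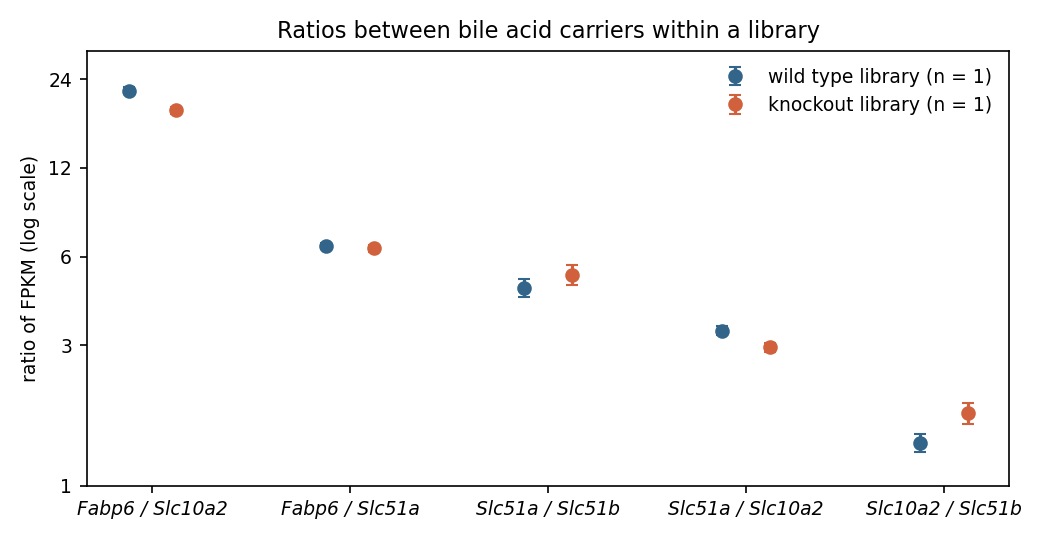
Ratios of FPKM between bile acid carrier genes within each library, on a log axis, with 95% counting intervals (1 library per genotype). The pairs with Slc10a2 are set apart between the libraries, such as Fabp6 over Slc10a2 at 21.9 and 18.8, and the intervals of Slc51a over Slc51b and of Fabp6 over Slc51a overlap.

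The pieces are described by the submitters as proximal small intestine, but genes of the ileum were abundant, which goes against a piece of duodenum alone. Beside Fabp6, Slc10a2 and the export subunits, Osr2, a transcription factor gene of the distal gut, had 48.8 FPKM in the wild type and 42.9 in the knockout. The duodenal factor Pdx1 had 4 reads and 1 read. Other proximal markers were abundant, with Rbp2 at 493 and 853 FPKM and the whole list of 20 summing to 1548 and 2293 FPKM. Gata4, a factor of the proximal small intestine that holds back ileal genes such as Slc10a2, was present at 15.7 and 17.2 FPKM. Osr2, Pdx1 and Gata4 were picked from the marker lists after their values had been seen. The position of the pieces along the gut is given no further in the labels.

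Markers of gut region differed between the libraries too, the distal ones in the direction of the bile acid genes and the proximal and large intestine ones mostly in the other. Of 15 distal small intestine markers, which leave out the bile acid genes, 12 were lower in the knockout, 1 of them by at least 2-fold, none was 2-fold higher, and their median log2 ratio was -0.20. That gene was Plb1, a brush border phospholipase, with 62.6 and 26.5 FPKM, and the most abundant were Muc3, a membrane mucin, with 1014 and 1016, and Naaladl1, a peptidase, with 949 and 752. Of 17 proximal markers compared, 12 were higher, 1 at least 2-fold higher (S100g, the vitamin D-dependent calcium binding protein, 11.6 and 48.5 FPKM), 1 at least 2-fold lower (Slc40a1, the iron exporter ferroportin, 8.75 and 3.41), and the median was 0.13. Fabp1 and Rbp2, carriers of fatty acids and retinol, had 486 and 493 FPKM in the wild type and 764 and 853 in the knockout. The summed FPKM of the distal markers was 4016 and 3537, that of the proximal markers 1548 and 2293. Of 4 large intestine markers compared, 3 were higher, 1 of them by at least 2-fold, and the median was 0.43. That gene was Car1, a carbonic anhydrase, with 0.874 and 15.9 FPKM, 18.2-fold higher (11.5 to 30.6), while Car4, another carbonic anhydrase, had 74.7 and 124 and the chloride exchanger Slc26a3 had 23.1 and 25.7. The summed FPKM of the 5 measured was 103 and 169.6. The part of gut region in the bile acid gene values was not tested. When both libraries were scaled to the same distal marker sum, which moved the median of all compared genes up by 0.15, the log2 ratios were -0.04 for Fabp6, -0.01 for Slc51a, -0.16 for Slc51b, -0.13 for Nr1h4, -0.12 for Fgf15 and 0.17 for Slc10a2.

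The summed signal of absorptive cell markers was similar, while single markers differed in both directions. The 8 enterocyte markers summed to 6703 FPKM in the wild type and 6279 in the knockout, with 5 lower, 0 past 2-fold and a median of -0.06. The bile acid genes summed to 2562 and 2200.0 FPKM, a ratio of 0.859 against 0.937 for the enterocyte markers. Of the bile acid sums, 2030.2 and 1735 FPKM came from Fabp6, so that ratio mostly reflects its fold of 0.854, while Slc10a2 had 0.995. The enterocyte ratio also leans on single abundant genes, with folds of 0.692 for Anpep and 1.39 for Sis. Among the enterocyte markers Krt20, a keratin of villus tips, had 1241 and 1207 FPKM, and the aminopeptidase Anpep had 1888 and 1307. Sis, picked after its values had been seen, had 868 and 1203 FPKM. Lymphocyte markers differed more, with a sum of 860.4 and 221 FPKM over 8 genes, all lower. By the log2 ratio, with its added 1 FPKM, 3 were at least 2-fold lower (Igha, Jchain and Cd79a). More passed 2-fold as plain folds, such as Ms4a1 at 0.343, picked after its values had been seen. Smooth muscle markers summed to 504 and 558 FPKM over 5 genes with 0 past 2-fold, and Acta2 had 210.2 and 208 and Myh11 129.5 and 132. Pancreatic acinar markers were low, with sums of 13.6 and 8.71 FPKM over 8 genes, and 5 of 6 compared were lower. By the log2 ratio 1 was at least 2-fold lower, Ctrb1, at 3.66 and 1.29, beside Cela1 at 4.32 and 4.67. As a plain fold Cpa1, picked after its values had been seen, was at 0.185. Mitochondrially encoded genes took 7.65% of summed FPKM in the wild type and 10.0% in the knockout. The part of these differences in the bile acid gene values was not tested.

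Other genes of the bile acid pathway lay on both sides of 0. Of 49 compared genes on 6 lists of partners, transporters, enzymes and targets, 0 were at least 2-fold higher and 1 was at least 2-fold lower. Among all compared genes 1.61% were at least 2-fold higher and 2.51% lower, so these counts are near the background. Of the 49, 24 had a log2 ratio above 0 and 25 below, and the median was 0.00. The median was -0.04 over 15 receptor partners and transcription factors, 0 of them past 2-fold. Hnf4a, the enterocyte nuclear receptor and the most abundant of them, had 203 and 198 FPKM, and the gut identity factor Cdx2 had 61.3 in both libraries. Rxra, the partner with which FXR binds DNA, had 29.3 and 29.9 FPKM, and Maf, a factor of villus enterocytes, had 42.0 and 38.0. These 2 were chosen for their role after their values had been seen.

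The list of bile acid and sterol transporters, which also held carriers of other cargo, had 11 genes compared. Of these, 6 were lower, 5 were higher and 0 passed 2-fold, with a median of -0.03. Slc27a4, a fatty acid transport protein, had 177 and 158 FPKM, and the drug efflux pump Abcb1a had 91.1 and 133, a fold of 1.46 (1.42 to 1.50). The apical pump Abcc2 and the basolateral pump Abcc3, which can both export conjugates of bile acids and were chosen after their values had been seen, stood in opposite directions, at 42.6 and 59.0 FPKM and at 13.4 and 10.1 FPKM. Malrd1, known to raise FGF15 output, had 42.9 and 57.9 FPKM, a fold of 1.35 (1.30 to 1.40), beside the lower value of Fgf15 in the same library. The FGF15 receptor gene Fgfr4 had 1.09 and 1.71 FPKM.

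**Figure D4:**
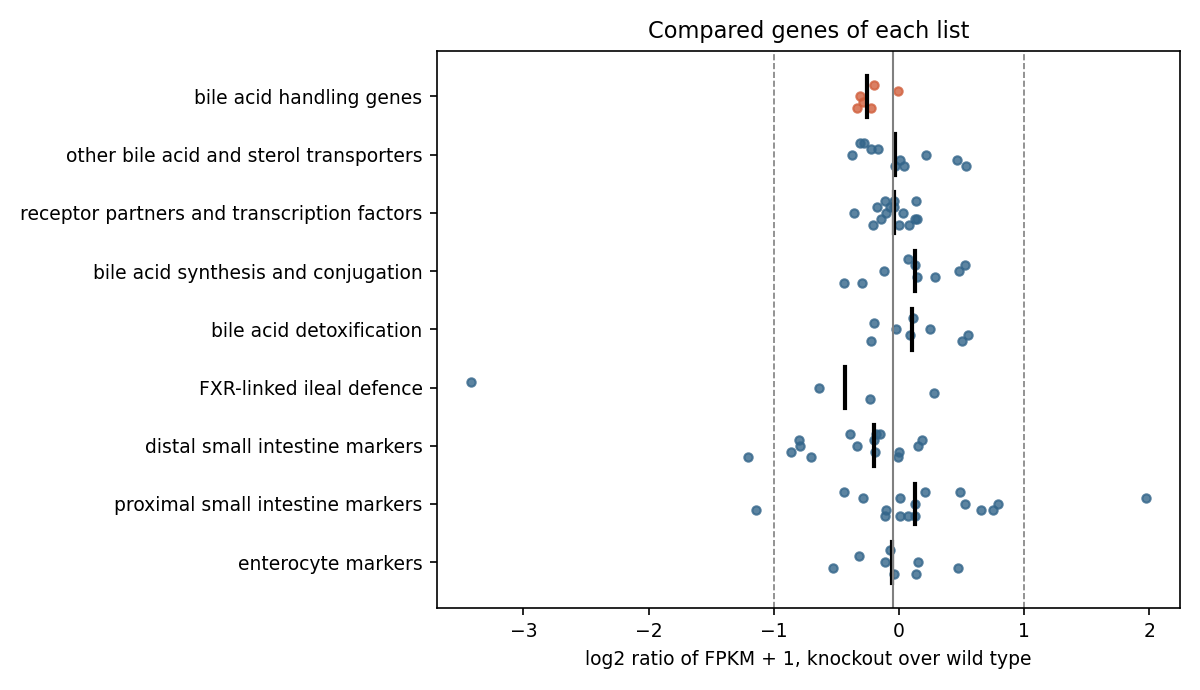
Log2 ratio of FPKM + 1, knockout over wild type, for the compared genes of each list, 1 point per gene, with the list median as a black bar, the median of all compared genes as a grey line and 2-fold as dashed lines. The bile acid handling genes lie between -0.34 and -0.01, the distal markers have a median of -0.20 and the proximal markers one of 0.13.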

How the data were processed

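Per the labels' protocols, RNA was taken up in TRIzol and cDNA was amplified by SMART-SeqII, with no molecular identifiers described. The deposited table holds FPKM, in which the authors scaled reads by gene length and library size. The submitters' processing notes list Bowtie2 2.2.3, HTSeq 0.6.0 and mm10 and assign them no role. Annotation release, strand, read layout and filters were not given in the sources used here. Groups came from sample titles.

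FPKM times exon length (GENCODE M21) stepped in whole reads, within 0.01, for 90.5% of values above 0 in each library, at denominators of 17425640 reads (wild type) and 17658566 reads (knockout). The search was tested on simulated data. Genes that reached 1 FPKM in either library were compared with a pseudocount of 1, and counted at 2-fold. Fold intervals are Clopper-Pearson (scipy 1.17.1), level intervals Poisson. A fold is a plain ratio, and the log2 ratio understates it for low genes. The members and lists were chosen with earlier results of these data known. The named genes are the 8 genes, Spib and the genes whose exons overlap those of the 8. From each list those past 2-fold and the 2 most abundant are named, and from the defence list all 4. Others are said to be chosen later. Cyp7a1, Hsd3b7 and Hoxb13, also listed, were not analysed here. Alternatives were the pseudocount, the filter and the scaling.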

Additional observations from a re-analysis of the deposited data

How the results depend on the processing

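No paired analysis was possible because each genotype had 1 library, and no library could be left out. The count of 0 bile acid genes past 2-fold held under 9 of 10 alternatives, and under the other, a pseudocount of 0.1 without a filter on low values, 1 was at least 2-fold lower and 1 in either direction, Gpbar1, at -1.21 from 7 and 2 reads. The median log2 ratio of -0.26 was -0.17 after scaling to the enterocyte markers and -0.084 after scaling to the distal markers. These 3 alternatives were chosen after seeing the data. Changing the filter alone could not alter the count of 0. Genes under 1 FPKM in both libraries cannot reach 2-fold with a pseudocount of 1, and all 6 compared genes reached 5 FPKM. Of 80 single gene values, 65 stayed within the counting interval of the gene and 15 did not, and 73 were below 0. The filter does not enter the ratio of a single gene, so some of these values are repeats and could not differ. Both alternatives that changed only the filter gave the main values again. The one without a filter at a pseudocount of 0.1 gave those of that pseudocount again. The 7 above 0 belonged to Slc10a2 and Nr0b2. Depth limits Nr0b2 and Gpbar1.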

Other observations

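Hepatocyte markers were low, and of the 7 measured only Ttr reached 1 FPKM, at 1.51 in the wild type and 1.02 in the knockout. Cyp8b1, the sterol 12-alpha-hydroxylase of liver, had 4 reads and 0 reads, Alb 5 and 0, and the summed FPKM of 7 hepatocyte markers was 2.40 in the wild type and 1.50 in the knockout, most of it from Ttr, while Apoa2 had 3 reads in each. Cyp8b1 and Alb were picked after their values had been seen. Of 9 compared synthesis and conjugation genes, 6 were higher, 3 were lower and 0 passed 2-fold, with a median log2 ratio of 0.13. The most abundant act in peroxisomes: Scp2 had 139 and 152 FPKM and Hsd17b4 had 49.2 and 68.8 FPKM. Of 8 detoxification genes, 5 were higher, 3 were lower and 0 passed 2-fold, with a median of 0.10. Cyp3a13 had 244 and 259 FPKM and the glucuronosyltransferase Ugt2b34 had 143 and 171 FPKM.

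A short list of defence genes known to respond to FXR in the ileum held the 1 pathway gene past 2-fold. Nos2, the inducible nitric oxide synthase, had 28.1 FPKM in the wild type and 1.72 in the knockout, 16.3-fold lower (13.7 to 19.6). The cytokine Il18 had 54.8 and 34.9 FPKM, 1.57-fold lower (1.42 to 1.74). Ang, a secreted ribonuclease, had 8.29 and 6.94 FPKM, and the carbonic anhydrase Car12 had 2.88 and 3.72. The fold of Nos2 was 0.0612, the lowest of the 4 genes on this list, and Car12 was higher. The folds of Nr1h4 and Fgf15 were 0.801 and 0.797, and those of Fabp6, Slc51a and Slc51b were 0.854, 0.872 and 0.789. The part of FXR in the Nos2 value was not tested, and the list was chosen with earlier results of these data known.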
